A study of Saccharomyces cerevisiae with 4 samples.

Results

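The meiosis and sporulation genes described here are those whose names belong to the SPO, SPS, SPR, REC, ZIP, MEI, MER, DIT and IME families. They were found by a rule on names, applied to the gene models that the authors tested. The members were chosen with earlier results of these data known. R64, the reference annotation of the S288C strain, holds 45 such names, and each has a model in the deposited table. SPS19 was left out by the rule and SPR2 was not tested by the authors, which leaves 43 genes of the 5364 with a tested model.

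RNA was sequenced from 2 yeast strains, with 2 libraries each. CEN.PK113-7D, the reference, needs no amino acid or base supplement and is haploid, of genotype MATa with the alleles MAL2-8c and SUC2. The minimal glycolysis strain, IMX372, shares MATa, MAL2-8c and SUC2, and lacks 13 minor paralogs of glycolysis and alcoholic fermentation. In IMX372, GLK1 is replaced by SpHis5, HXK1 by KlLEU2 and TDH1 by KlURA3, and TDH2, ENO1, PYK2, GPM2, GPM3, PDC5, PDC6, ADH2, ADH4 and ADH5 are deleted, on a background of ura3-52, his3-1 and leu2-3,112. Effects of the marker alleles and of the deletions cannot be told apart. Cultures were aerobic batches in bioreactors at 30 °C and pH 5, on 20 g/L glucose, sampled in mid-exponential phase. The labels do not state outright that the libraries of a strain come from separate cultures. For each gene the table gives 1 FPKM per strain, a number of fragments scaled to the length of the gene model and to the size of the library, in which the authors pooled the libraries. No library's own value, SD or read depth can therefore be given for any gene below. As a check of the labels, the deleted GPM3 had 57.7 FPKM in CEN.PK113-7D and was listed at 0 in IMX372, while the authors ran no test on the other 10 deleted genes with a model. These 10 genes had an entry of 0 FPKM in IMX372 and also in CEN.PK113-7D, where they were not deleted, so they check nothing and the check rests on GPM3 alone. The names of the samples in the table end in masked, and what was masked is not given in the sources used here.

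Meiosis and spore formation in budding yeast normally need a diploid cell that carries both mating types and is starved of nitrogen and of a fermentable carbon source. The transcription activator Ime1 then starts a cascade. Early genes carry the URS1 element, through which Ume6 represses them in growing cells. Middle genes carry the middle sporulation element, which Sum1 represses and Ndt80 activates. Late genes build the spore wall. A haploid growing on glucose has neither the mating-type signal nor the nutritional one, so the question the families can answer here is how low the programme lies and whether the minimal glycolysis strain differs in it.

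In both strains most of these genes lay far below the typical gene, and no member passed the authors' test between the strains. The median level of the 43 members was 9.32 FPKM in the reference and 8.53 in the minimal glycolysis strain, against 63.1 and 65.1 over all tested genes. Of the members, 39 lay below the median of all tested genes in the reference. Under 10 FPKM lay 24 of 43 members or 55.8% (exact Clopper-Pearson 95% interval 39.9% to 70.9%, for the number of genes alone), compared with 6.43% of all tested genes. In the minimal glycolysis strain the same number, 24, lay under 10 FPKM. In bulk RNA, a few cells with much transcript and many cells with little cannot be told apart. Of the 43 members 0 passed a q of 0.05 in the authors' deposited table, where 0.764% of all tested genes did, 0.522% higher and 0.242% lower. At a q of 0.01 the members again had 0, against 0.652% of all tested genes. The q of the members was 0.998 throughout in that table. At an unadjusted Cuffdiff p under 0.05 there was 1 member, SPS4, or 2.33%, next to 3.21% of all tested genes. No member changed by 2-fold or more, against 0.541% of all tested genes.

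**Figure D1:**
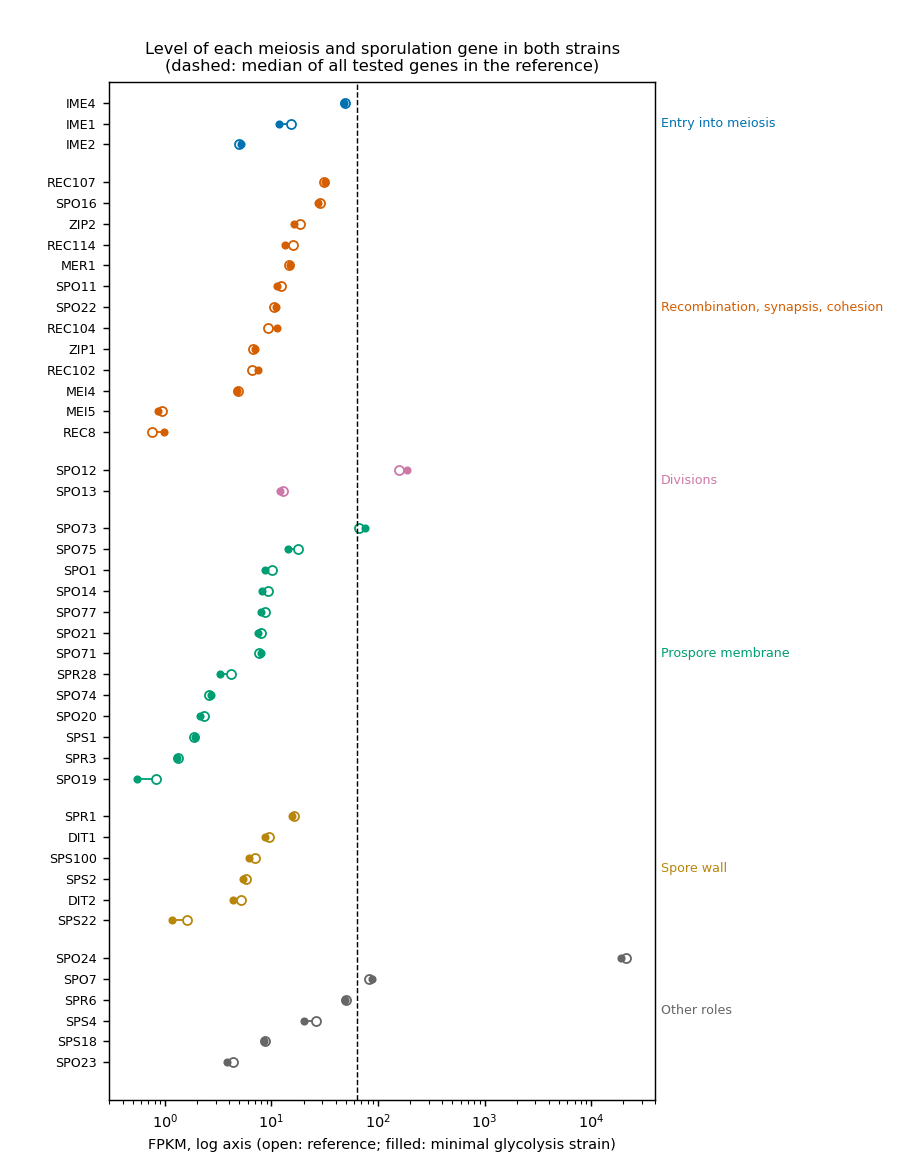
FPKM of each of the 43 members on a log axis, in the reference (open circles) and the minimal glycolysis strain (filled circles), grouped by role, with the median of all tested genes in the reference as a dashed line. The circles of a gene nearly touch in most rows, SPO24 stands alone at 21103 FPKM, and REC8, SPO19 and MEI5 lie under 1 FPKM in both strains.

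The promoter sequences differ by role along the cascade, and the sites of the early genes are shown first. The 250 bases before each start codon were searched on both strands, in the R64 assembly and by its own annotation, since the CEN.PK113-7D sequence was not used here. The URS1 sequence GGCGGCTA was in 9 of the 43 promoters or 20.9%, and in 1.08% of 6001 promoters of the same length. In the stretches of 30 bases below, read 5′ to 3′ along the motif, capitals mark it.
MEI4: atatattgctgGGCGGCTAaatgtttccga
MEI5: atagaagtttgGGCGGCTAatactttttcc
MER1: ttaacactgtcGGCGGCTAaaatgcgatcg
REC104: gcacaatatttGGCGGCTAttttccgctat
REC114: gttacaaggtgGGCGGCTAacttataaaaa
SPO13: tcctttttgtcGGCGGCTAtttctcaatat
SPO16: cgtgaaaagtgGGCGGCTAaaaccgagaaa
SPO22: atacaaacttcGGCGGCTAattgcaaataa
ZIP1: aaaataccctcGGCGGCTAaatttttagag
Between the motif and the start codon lie 80 to 120 bases in 8 of these promoters and 12 bases in that of ZIP1. The motif is on the strand of the gene in 6 and on the other strand in 3, those of MEI5, MER1 and SPO13. By role, 8 of the 9 are among the 13 genes of recombination, synapsis and cohesion, and the other is SPO13. The core GGCGGC, which is part of the longer motif, was in 12 member promoters or 27.9%, against 4.17% of all promoters, and it added REC8, IME4 and SPO23. A promoter without these letters may still hold a variant of the site, or a site beyond the 250 bases searched.

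The middle sporulation element was searched as CNCAAAA or CNCAAAT, with A or G at N. It was in 14 of the 43 promoters or 32.6%, and these short letters were also in 17.1% of all promoters. Of the 13 prospore membrane genes 8 held it, of the 6 spore wall genes 2, of the 6 genes in no other group 4, and of the 13 recombination genes 0. A few sites of 29 bases are printed for comparison with the early ones, again with the motif in capitals.
SPR3: aaattcaatgaCGCAAAAggaattttagg
SPR28: tatgggaatgaCACAAAAtgtagacgcat
SPO21: ttttttaatgtCACAAAAagaaaaattaa
SPS2: ctaagtaatgcCACAAAAtattttttttg
SPS22: ctattgtatgtCACAAAAggatatagctt
SPS4: ttgacgcgcgcCACAAAAacgtatcattg
No member promoter held both GGCGGCTA and a middle element. The share of all promoters with both was not counted. With a middle element in 17.1% of all promoters, few of 9 promoters would hold one in any case. Of the other pathway genes described below, SLZ1, ADY3 and MPC54 held both. The 9 members with GGCGGCTA had a median of 10.5 FPKM in the reference, from 0.943 for MEI5 to 28.6 for SPO16. The 14 with a middle element had a median of 6.90 FPKM, from 0.816 for SPO19 to 21103 for SPO24. The median log2 ratio of minimal glycolysis over reference was -0.03 for the members with GGCGGCTA and -0.11 for the 34 without it. For the members with a middle element it was -0.15, and for the 29 without one -0.05. The members without GGCGGCTA had a median of 8.75 FPKM in the reference, and those without a middle element 10.1. The part of level in these ratios was not tested. These are descriptions of small sets, and a match is not a bound site.

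**Figure D2:**
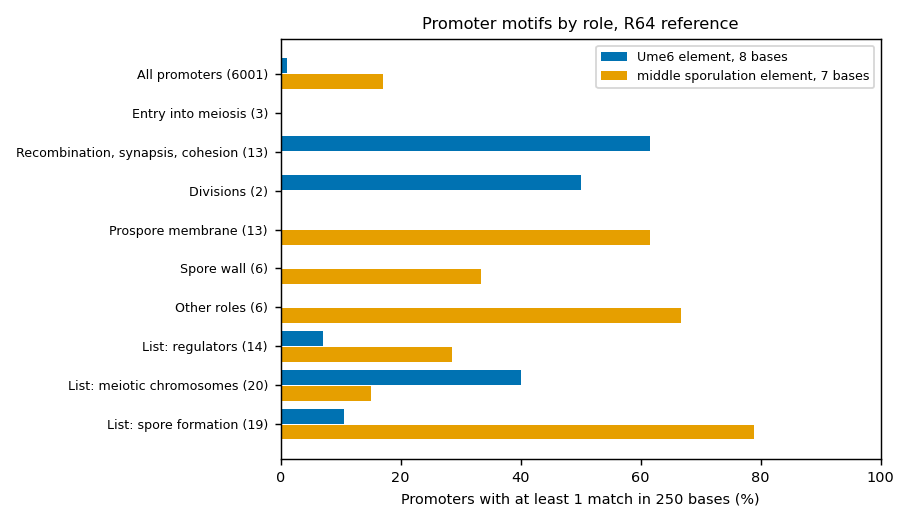
Share of promoters (%) with at least 1 match within 250 bases of the start codon in the R64 assembly, for the URS1 element that Ume6 binds and for the middle sporulation element, by role of the members, by list of other pathway genes and over all promoters, with the number of promoters in parentheses. URS1 reaches 61.5% in the recombination group and 0% in the prospore membrane group, while the middle element shows the opposite, 0% and 61.5%. The split is less sharp in the lists. The middle element is in 15% of the meiotic chromosome genes, and URS1 is in 10.5% of the spore formation genes.

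Entry into meiosis is set by IME1, IME2 and IME4. IME1, the master activator (chromosome 10, 587084 to 588166, CEN.PK113-7D assembly), had 15.4 FPKM in the reference and 11.9 in the minimal glycolysis strain, a log2 ratio of -0.38. It was not called (Cuffdiff p = 0.0657 and q = 0.998 in the authors' deposited table). IME2, the meiotic protein kinase that Ime1 induces (chromosome 10, 203934 to 205871), had 5.01 and 5.21 FPKM. IME4, an mRNA adenosine methyltransferase needed for full IME1 expression, had 48.7 and 47.8 FPKM. The kit named in the labels does not mark the strand, so the IME4 values may hold antisense reads. Of the 3 genes, only IME1 had a log2 ratio beyond 0.1 in size.

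The genes that make double-strand breaks in meiotic DNA were low but measurable. SPO11, which encodes the topoisomerase-like break enzyme (chromosome 8), is split into a pair of models in the table. The longer model, of 843 bases, had 12.3 FPKM in the reference and 11.3 in the minimal glycolysis strain, and the shorter one, of 279 bases, had 11.4 and 11.8. The models of 1 gene thus pointed in opposite directions, at log2 ratios of -0.12 and 0.05. Among its partners, REC107 (also known as MER2) was the highest at 30.9 FPKM in the reference and 32.1 in the minimal glycolysis strain. REC114 had 16.1 and 13.5 FPKM, REC104 9.34 and 11.4, REC102 6.60 and 7.52, and MEI4 4.80 and 4.71. These accessory break proteins did not share a direction, since REC104, REC102 and REC107 had log2 ratios of 0.28, 0.19 and 0.05, and REC114 and MEI4 of -0.25 and -0.03. REC107, REC114, REC102 and MEI4 hold introns in R64, as do SPO22 and SPO1, and their models in the table have the length of the gene with its intron. Whether the authors counted intron reads is not given in the sources used here.

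The synapsis genes had similar levels. ZIP1, the central filament of the synaptonemal complex, had 6.75 FPKM in the reference and 7.06 in the minimal glycolysis strain. ZIP2, SPO22 (also known as ZIP4) and SPO16, whose proteins start synapsis at crossover sites, had 18.4, 10.5 and 28.6 FPKM in the reference and 16.3, 10.9 and 27.6 in the minimal glycolysis strain. MER1, a meiotic splicing activator, had 14.8 and 15.0 FPKM. MEI5, a helper of the recombinase Dmc1, had 0.943 and 0.853 FPKM. REC8, the meiotic cohesin subunit (chromosome 16, 569271 to 571313), was the lowest member in the reference at 0.755 FPKM and had 0.991 in the minimal glycolysis strain. Its log2 ratio of 0.39 was the highest of the 43 and came from a difference of 0.235 FPKM, with a Cuffdiff p of 0.255 in the authors' deposited table. Of the 13 genes of recombination, synapsis and cohesion 6 had log2 ratios below 0 and 7 above, with a median of 0.03.

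Of the 2 division genes, SPO12 was high and SPO13 lay within the range of the recombination genes. SPO12 (chromosome 8, 394592 to 395113), which also acts in exit from mitosis, had 158 FPKM in the reference and 188 in the minimal glycolysis strain. Its log2 ratio of 0.25 was not called (Cuffdiff p = 0.137 and q = 0.998 in the authors' deposited table). SPO13, which keeps sister chromatids together in the first meiotic division, had 12.7 and 12.0 FPKM. BNS1, the paralog of SPO12, had 52.7 and 57.2 FPKM.

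The prospore membrane becomes the plasma membrane of each spore, and its genes ranged from under 1 FPKM to the middle of the transcriptome. SPO73, needed for the membrane to extend (chromosome 5, 241589 to 242020), was the highest with 66.9 FPKM in the reference and 75.6 in the minimal glycolysis strain. SPO75 had 17.9 and 14.2 FPKM, a log2 ratio of -0.33 with a Cuffdiff p of 0.059 in the authors' deposited table. SPO1, a phospholipase homolog, and SPO14, the phospholipase D gene, had 10.1 and 9.32 FPKM in the reference and 8.64 and 8.19 in the minimal glycolysis strain. The membrane starts at the meiotic outer plaque of the spindle pole body. The plaque subunit genes SPO21 and SPO74 had 7.98 and 2.62 FPKM in the reference and 7.53 and 2.72 in the minimal glycolysis strain. SPO71, another gene of membrane growth, had 7.65 and 8.03 FPKM, and SPO20, the SNARE gene for vesicle fusion at the membrane, 2.33 and 2.15. SPO77 and SPS1, the latter a protein kinase gene, act in closing the membrane and had 8.76 and 1.88 FPKM in the reference and 7.98 and 1.90 in the minimal glycolysis strain. The sporulation septin genes SPR28 and SPR3 had 4.20 and 1.32 FPKM in the reference and 3.32 and 1.29 in the minimal glycolysis strain. SPO19, a prospore membrane protein gene (chromosome 16, 304270 to 304941), had 0.816 and 0.544 FPKM. Its log2 ratio of -0.59 was the lowest of the members, and the Cuffdiff p was 0.388 in the authors' deposited table. In this group 9 of 13 log2 ratios or 69.2% lay below 0, with a median of -0.12. In the reference 10 of the 13 genes had under 10 FPKM. Of all tested genes, 73.5% of those at 1 to 5 FPKM and 73.3% of those at 5 to 10 FPKM also lay below 0.

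The 6 spore wall genes had log2 ratios below 0 without exception, between -0.47 and -0.08, and none was called. Of all tested genes, 73.5% of those at 1 to 5 FPKM in the reference and 73.3% of those at 5 to 10 FPKM also lay below 0, and 5 of the 6 genes were in these ranges. DIT1 and DIT2, the enzymes of dityrosine synthesis for the outermost wall layer, lie next to each other on chromosome 4 and are transcribed away from each other in R64. DIT1 had 9.57 FPKM in the reference and 8.64 in the minimal glycolysis strain, and DIT2 had 5.12 and 4.40. SPR1, an exo-glucanase gene, had 16.4 and 15.5 FPKM, and SPS100, a gene of wall maturation, 6.94 and 6.18. SPS2 and SPS22, a related pair needed for the glucan layer, had 5.82 and 1.62 FPKM in the reference and 5.39 and 1.17 in the minimal glycolysis strain. The smallest Cuffdiff p of the group was 0.178 for SPS22 in the authors' deposited table.

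The members in no other group held both the highest level and the smallest p. SPO24, a small open reading frame needed for efficient sporulation (chromosome 16, 645880 to 646083), had 21103 FPKM in the reference and 18955 in the minimal glycolysis strain. In the reference 14 genes were higher. Its model is 204 bases long, and the 161 tested genes with models under 300 bases had a median of 667 FPKM. The part of the short length in this level was not tested. SPO7, a subunit of the Nem1-Spo7 phosphatase that controls lipid synthesis at the nuclear envelope in growing cells, had 82.6 and 87.3 FPKM, and NEM1, its partner, 42.1 and 41.5. SPS4, a gene induced in sporulation (chromosome 15, 901751 to 902767), had 26.5 and 20.3 FPKM. Its log2 ratio was -0.38, with a Cuffdiff p of 0.0401 and a q of 0.998 in the authors' deposited table. SPR6, of unknown function, had 50.5 and 48.7 FPKM, SPS18 8.74 and 8.53, and SPO23 4.40 and 3.84.

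Across the members the order of levels was nearly the same in both strains. The 10 highest members held the same ranks, and no member moved by more than 4 places. With pooled values, neighbours in that order cannot be said to differ. The log2 ratio lay below 0 for 29 members and above 0 for 14, with a median of -0.08. Over all tested genes 47.0% lay below 0, and the median was 0.01. Among tested genes under 20 FPKM in the reference 64.5% of 854 lay below 0, with a median of -0.06, and of the 34 members in that range 24 did, or 70.6%, with a median of -0.11. Low genes in general thus had lower ratios, and the part of level in the members' median was not tested. When all genes were divided into 6 ranges of level, 4 members lay outside the central 90% of the ratios in their range. They were REC104 on the high side and IME1, SPO75 and SPS4 on the low side, and 4 of 43 is 9.30%, next to the 10% that this range leaves out by construction. The members are themselves counted in these ranges. The lowest range, under 1 FPKM, held only 10 genes with a ratio, 3 of them members, so it says little about those 3.

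**Figure D3:**
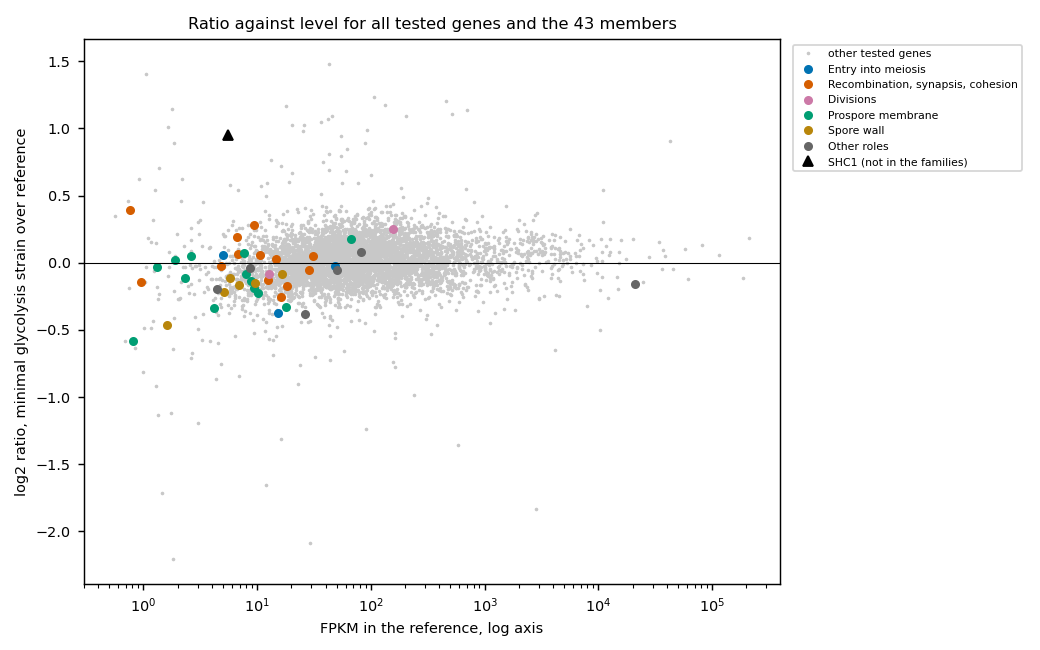
Log2 ratio between the strains, with the reference as the denominator, against FPKM in the reference (log axis) for all tested genes (grey) and the 43 members (coloured by role), with SHC1 as a triangle. The members lie between -0.59 and 0.39 inside the grey cloud, the widest ones at the low end of the level axis, and SHC1 lies above them at 0.95.

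The rest of the pathway was read from lists of other meiosis and sporulation genes. Of these 55 were tested and 1 passed a q of 0.05, where 0.764% of all tested genes did. The called gene is SHC1, which encodes an activator of chitin synthesis in spore wall formation, with 5.57 FPKM in the reference and 10.8 in the minimal glycolysis strain. It rose 1.93-fold (Cuffdiff q = 0.00735 in the authors' deposited table). SHC1 lies on chromosome 5 (349914 to 351452), and the run of 9 consecutive tested models from PUP3 to RTT105 around it, of which 0 are members, was called higher throughout. Of the 19 tested genes of the spore formation list 1 was thus higher, 0 were lower, and the median log2 ratio was -0.09. CDA1, a chitin deacetylase gene of the spore wall, had 4.80 and 2.85 FPKM (Cuffdiff p = 0.0129 and q = 0.896 in the authors' deposited table), and CRR1, a spore wall glycoside hydrolase gene, had 7.68 and 5.85. LDS1, chosen after its values were seen, had 1.45 and 0.441 FPKM and a Cuffdiff p of 0.0151 with a q of 0.974 in that table.

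In the list of 20 meiotic chromosome genes 0 were called, next to 0.764% of all tested genes. Of their log2 ratios 16 or 80% lay below 0, and the median was -0.06. In the reference 16 of the 20 genes had under 10 FPKM. Of all tested genes, 73.5% of those at 1 to 5 FPKM and 73.3% of those at 5 to 10 FPKM also lay below 0. GMC2, MEK1 and MND1, genes of synapsis, checkpoint signalling and strand exchange, had 1.38, 2.83 and 5.87 FPKM in the reference and 2.24, 2.14 and 5.19 in the minimal glycolysis strain. The list was low like the members, with a median of 4.91 FPKM in the reference. Of its promoters 8 or 40.0% held GGCGGCTA and 3 or 15% a middle element, the latter near the 17.1% of all promoters. Of the 19 spore formation genes 15 or 78.9% held a middle element. GGCGGCTA was in 2 of these 15, ADY3 and MPC54, and in no other gene of that list. Among the regulators 4 of 14 held a middle element, and 1 of them, SLZ1, also held GGCGGCTA. Of the 14 tested regulators 0 were called, at a median log2 ratio of -0.08 and a median level of 36.4 FPKM in the reference. RFM1, MUM2 and RIM11 had log2 ratios of 0.23, 0.23 and -0.20. Chosen for their roles after their values were seen, UME6, the repressor of early genes, had 26.0 and 24.9 FPKM, SUM1, the repressor of middle genes, 44.7 and 42.9, and NDT80, their activator, 12.8 and 11.9. RME1, the repressor of IME1 in haploids, was not analysed here.

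**Figure D4:**
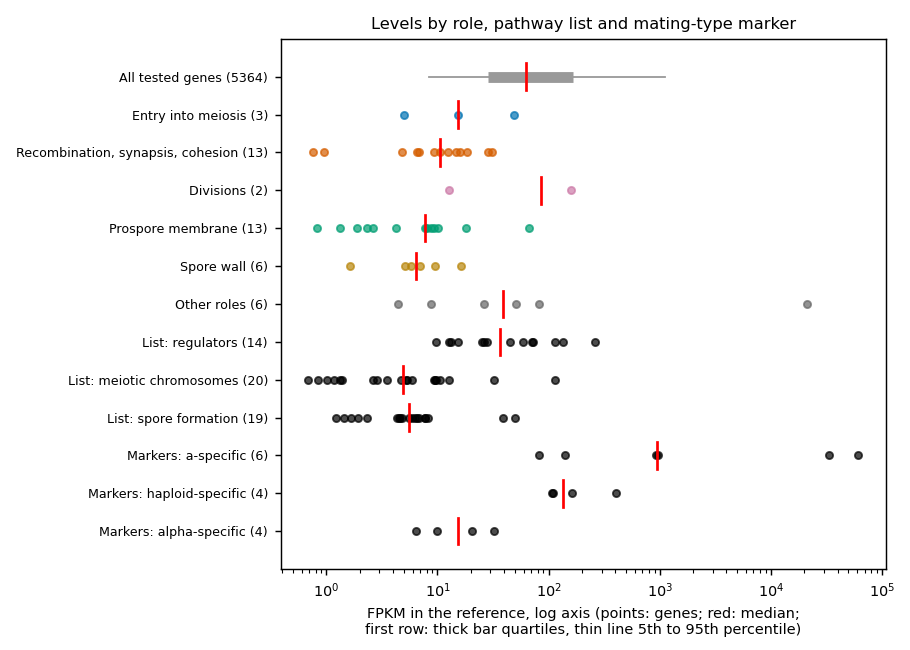
FPKM in the reference (log axis) of the members by role, of the other pathway lists and of mating-type markers, with 1 point per gene, red medians, and the spread of all tested genes in the first row. The recombination, prospore membrane and spore wall groups and the lists of chromosome and spore genes have medians between 4.91 and 10.5 FPKM, below that of all tested genes at 63.1, and the regulators lie higher.

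The mating-type markers matched the MATa label in both strains. The 6 genes transcribed in a cells lay between 81.8 FPKM for STE6 and 61347 for MFA2 in the reference, and STE2, the alpha-factor receptor, had 971 FPKM in the reference and 990 in the minimal glycolysis strain. The 4 genes of alpha cells lay between 6.45 and 32.3 FPKM in the reference, with STE3, the a-factor receptor, at 9.97 and 7.63. The 4 tested haploid-specific genes, off in diploids, lay between 107 and 409 FPKM in the reference.

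Outside the 43 genes, SPR2 was listed with 0.517 FPKM in the reference and 0.222 in the minimal glycolysis strain and was not tested by the authors. SPS19, a peroxisomal enzyme gene that shares its upstream region with SPS18, had 13.2 and 11.6 FPKM and was not called.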

How the data were processed

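RNA sequencing covered 4 libraries, 2 per strain, grouped by the strain label. The tools that the submitters' processing notes name, without roles, are Cuffdiff, Cufflinks, BWA 0.5.9-r16, CASAVA 1.8.2 and SAMtools 0.1.7-r510. Per the labels, reads had 51 bases and were analysed on the genome of CEN.PK113-7D, and the kit named does not mark the strand, so antisense reads cannot be separated. The deposited table holds the authors' FPKM, pooled per strain, their log2 ratio, and their p-value and q-value. Depth per library is unknown. The number of per-sample columns left unused was 0.

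Symbols came from R64 through systematic names. One model per name, the longest with status OK, was kept. No pseudocount was added to the FPKM before log2 ratios were taken. A gene was called at an authors' q of at most 0.05, and no test over libraries could be run. Model starts were shifted to count from 1. Python 3.11.15, pandas 2.3.3, NumPy 2.4.6 and SciPy 1.17.1 were used, and the q recomputation was tested on simulated data.

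The members, role groups and lists were chosen with earlier results of these data known. Every member is named. Of each other pathway list, called genes and the 3 largest absolute log2 ratios at 1 FPKM or more in both strains are named. Mating-type markers are given by their range, and those named singly were chosen outside this rule.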

Additional observations from a re-analysis of the deposited data

How the results depend on the processing

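No paired analysis was possible because the table gives 1 pooled value per strain, and for the same reason leaving out a library was not run. The count of 0 called members stayed 0 in 9 alternatives: a q of 0.01, a 2-fold change, recomputed q-values, genes at 1 or 10 FPKM or more, every tested model, SPS19 added, SPO7, SPO12, SPO14 and IME4 left out, and overlapping models left out, of which there were 0. It was 1 at an unadjusted p of 0.05. A stricter q, or leaving genes out at the authors' q, cannot raise a count of 0, so those alternatives do not check it. The median log2 ratio of -0.083 was -0.073 with 1 FPKM added, -0.047 with 5 FPKM added, -0.095 after centring on the median of all genes, -0.067 with genes at 10 FPKM or more and -0.087 without those 4 genes. The share of members under 10 FPKM, 55.8%, was 25.6% at a level of 5 FPKM and 79.1% at 20 FPKM, by construction. For single members, an FPKM added to both strains cannot turn the sign, and centring moves every log2 ratio by 0.012, so these alternatives say little about direction. Read depth per gene is unknown, so a difference too small for the authors' test may have been missed in genes this low.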

Other observations

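Many members sit beside far more abundant genes. By the table's coordinates both neighbouring models had a higher FPKM than the member in the reference for 29 of 43 members or 67.4%, against 32.2% of all tested genes with a model on both sides. For SPO11 the right-hand neighbouring model was its own shorter model, at 11.4 FPKM. Under 20 FPKM the shares were closer, 76.5% of the members and 77.4% of all tested genes. A neighbour more than 10 times as high was present for 73.5% of the members and 53.0% of all tested genes under 20 FPKM. SPO19, at 0.816 FPKM, lies 372 bases from RPL5, a ribosomal protein gene at 4827 FPKM, and MEI4, at 4.80 FPKM, 443 bases from ERG28, an ergosterol synthesis gene at 881 FPKM. No member's model overlapped another, and the smallest gap was 68 bases, between SPO74 and ROK1. SPO12 and SPO16, which are convergent in R64, lie 130 bases apart, with log2 ratios of 0.25 and -0.05. The part of neighbouring transcripts in the low levels was not tested. None of the neighbours was called by the authors' Cuffdiff test, where 0.764% of all tested genes were. At that share a count of 0 says little about so few genes.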
